A study of Homo sapiens with 6 samples.

Results

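The 10 genes described here encode subunits of the serine/threonine phosphatases that remove phosphate from tau: PP2A, PP1, calcineurin and PP5. They were selected by gene symbol rather than by a threshold on measured values, but with earlier results of these data known. They are 10 of the 32862 genes in the table. All 10 reached the minimum for testing, a mean FPKM (fragments per kilobase and depth) of 1 across libraries, as did 10820 genes in all. RNA came from SH-SY5Y, a human neuroblastoma cell line, and was sequenced after poly(A) selection. There were 3 libraries of cells with OTULIN, a deubiquitinase of linear ubiquitin chains, knocked out by CRISPR-Cas9 (OTULIN KO), against 3 of wild-type cells (WT). All 6 were untreated and carry the same batch label. The labels do not say whether the KO cells are a single clone or whether replicates are separate cultures, so each p-value speaks only of the spread among these libraries, which may be technical.

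Tau is a microtubule-associated protein of neurons, and the balance between its kinases and phosphatases sets how many of its serines and threonines carry phosphate. PP2A, the main tau phosphatase of brain, is assembled from a catalytic subunit, a scaffold and an exchangeable regulatory subunit, and the B55 regulatory subunits direct it to tau. PP1 works through many targeting and inhibitory partners, calcineurin is switched on by calcium and calmodulin, and PP5 is a single chain that is activated by binding the chaperone HSP90.

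The libraries labelled OTULIN KO stood apart in depth and composition, which touches every value below. They held 725827 to 862932 counts and 2306 to 2567 genes with a count, against 61772795 to 64352333 counts and 27453 to 27958 genes in WT libraries, a 78.5-fold ratio of mean totals. Loci inside 18S ribosomal RNA genes took 19.5% to 36.5% of the KO counts and 0.438% to 0.823% of the WT counts. Of the genes tested, 71.3% had 0 counts in all 3 KO libraries, OTULIN and MAPT, which encodes tau, among them. A count of 0 for OTULIN therefore does not check the labels. Among 7 adrenergic neuroblastoma markers, all counted in WT, HAND2 and ISL1 had KO counts and DBH, PHOX2A, GATA3, CHGA and TH had none, with summed levels of 350.0 to 436 CPM in KO and 4545 to 5230.5 CPM in WT. Mesenchymal markers summed to 16.5 to 69.2 CPM in KO and 301 to 310 CPM in WT, and epithelial markers to 4.94 to 29.0 CPM in KO and 7.43 to 23.1 CPM in WT. Blood markers summed to 0 to 6.89 CPM in KO and 0.0643 to 1.39 CPM in WT, and glial and endothelial markers to 0 to 4.13 CPM in KO and 0.109 to 1.25 CPM in WT. Whether the KO columns sample RNA as the WT columns do is not known, and the bounds given below for genes at 0 hold only if they do. Those bounds also cover counting error alone, while the KO libraries differed from each other by more than that. The part of depth and composition in the differences was not tested, and the design cannot tell them apart from genotype. In bulk RNA, fewer cells of a type and less RNA per cell cannot be told apart either.

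Among the 10 genes, 3 were higher in KO, 5 were lower and 2 did not pass the test. The higher genes were PPP2CA, PPP2R2B and PPP3CB, and the lower ones were PPP2CB, PPP2R1A, PPP2R5D, PPP1CA and PPP5C. PPP2R2A and PPP3CA were not called. These calls come from edgeR's quasi-likelihood test on the counts, with a Benjamini-Hochberg adjusted p under 0.05 over all genes tested. By the same rule 7.63% of all genes tested were higher and 88.0% lower, so that 95.6% were called in either direction. Levels, in counts scaled to the total of the library (CPM), did not overlap between KO and WT for 8 of the 10 genes and for 96.2% of all genes tested. By mean FPKM, PPP2R2B passed the filter only through KO and the 5 lower genes only through WT, which makes a gene more likely to differ. With genes at 0 in KO set to the bound that 3 counts over the KO group allow (1.25 CPM), the median log2 ratio of mean CPM was -3.29 over the 10 genes and -4.55 over all genes tested. The fitted log2 changes, which for genes at 0 depend on the prior count, had a median of -4.59 over the 10 genes and -12.42 over all genes tested.

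**Figure D1:**
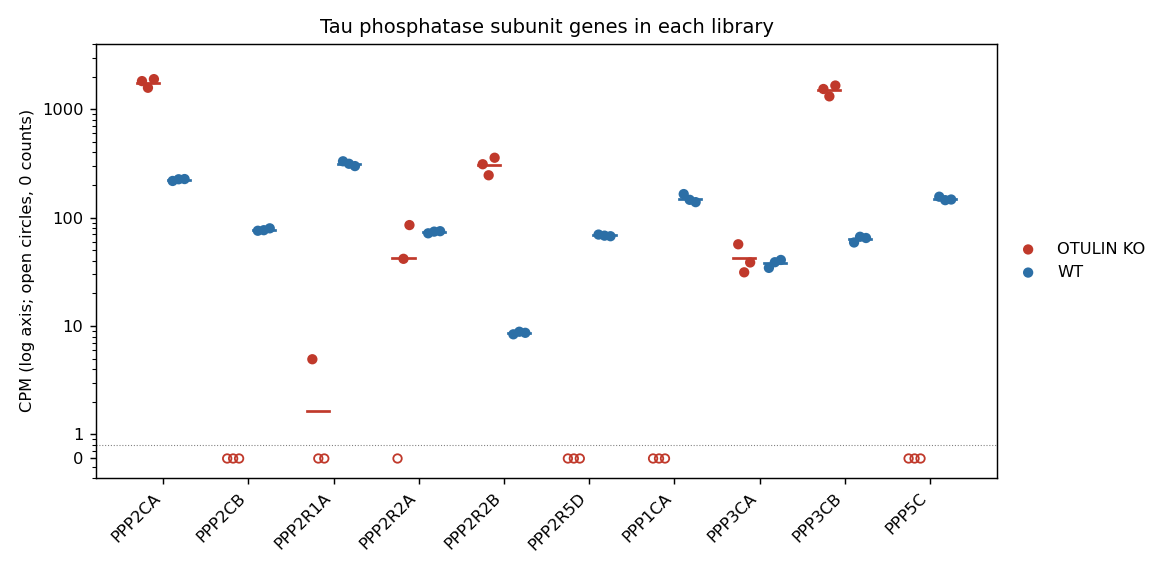
Level of each of the 10 genes in CPM (log axis) in each OTULIN KO library (red) and each WT library (blue), with the group mean as a bar and open circles for 0 counts. PPP2CA, PPP2R2B and PPP3CB lie higher in all 3 KO libraries than in any WT library, and PPP2CB, PPP2R5D, PPP1CA and PPP5C are at 0 in all 3 KO libraries.

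The catalytic subunit of PP2A was counted from only 1 of its 2 genes in KO libraries. PPP2CA (chr5:134194035-134226073, minus strand, hg38), which encodes the alpha isoform, had 1472, 1362 and 1376 counts in KO libraries and 13534, 14561 and 14033 in WT libraries, which hold far more counts in all. As a level this was 1818, 1578 and 1896 CPM in KO and 218, 226 and 227 CPM in WT. Every KO library was above every WT library. The mean of 1764 ± 165 CPM in KO was 7.89-fold the 224 ± 5.3 CPM in WT (SD, n = 3 each). The fitted log2 change was 2.58 with a standard error of 0.07 (edgeR, adjusted p = 1.9e-06). It is smaller than the CPM fold because edgeR also scaled the libraries by TMM factors, and was 2.98 on library totals. PPP2CB, the beta isoform gene on chromosome 8, had 0 counts in all 3 KO libraries and 75.7, 76.6 and 79.7 CPM in WT. At its WT share of counts it would have had 62.6, 66.7 and 56.1 counts in the KO libraries. Its level was at least 61.8-fold lower in KO (edgeR, adjusted p = 1.2e-05), or at least 44.1-fold with the 4 ribosomal RNA loci left out of the totals.

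Within the pair, PPP2CA made up 100% of the counts in each KO library, against 74.2%, 74.7% and 74.0% in WT libraries. Such a share is taken within a library and does not depend on how libraries are scaled against each other. The difference of 25.7 percentage points had the smallest p that 3 against 3 libraries can give (exact two-sided permutation test, p = 0.1). Per length, the summed level of both genes was 243 ± 24 FPKM in KO and 47.3 ± 1.0 FPKM in WT (SD, n = 3 each). The coding sequences of PPP2CA and PPP2CB are 83.2% identical, but the longest run of bases that their longest coding transcripts share is 26.

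The scaffold, which holds the catalytic and regulatory subunits together, was close to absent from the KO counts. PPP2R1A (chr19:52170936-52229518, plus strand), the gene for the alpha scaffold, had 4, 0 and 0 counts in KO libraries and 20561, 20232 and 18472 in WT libraries. At its WT share of counts it would have had 255, 272 and 228 counts in the KO libraries. Its mean level was 1.65 ± 2.9 CPM in KO and 315 ± 16 CPM in WT (SD, n = 3 each), 191-fold lower, with a 95% counting interval of 73.7 to 693. The fitted log2 change was -7.95 with a standard error of 0.51 (edgeR, adjusted p = 1.4e-05), and without KO replicate 1 the gene was at 0 in KO, at least 167-fold lower. PPP2R1B, the beta scaffold gene, had 0 counts in KO, at least 26.6-fold lower. Per length, the catalytic genes summed to 243 FPKM and the scaffold genes to 0.111 FPKM in KO, against 47.3 and 32.4 FPKM in WT. The catalytic sum in KO came from PPP2CA alone, while PPP2CB, PPP2R1A and PPP2R1B were all called lower, as were 88.0% of all genes tested.

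The order of the 2 B55 genes among the 10 differed between KO and WT. PPP2R2B (chr5:146580742-147084784, minus strand), the neuronal B55 beta gene, had 252, 212 and 259 counts in KO libraries and 522, 570 and 535 in WT libraries. Its level was 311, 246 and 357 CPM in KO and 8.39, 8.86 and 8.66 CPM in WT, with no overlap. The 35.3-fold higher mean in KO was the largest increase among the 10 genes on the CPM scale. Its log2 change fitted with TMM factors was 4.74 with a standard error of 0.12 (edgeR, adjusted p = 1.4e-06), against 5.14 on library totals. With 0.578 FPKM in WT, PPP2R2B passed the filter only through its KO level of 20.0 FPKM, which makes a call as higher more likely. It was also called higher with no filter (log2 change 4.60, edgeR, adjusted p = 6.7e-06). PPP2R2A, the B55 alpha gene on chromosome 8, had 0, 36 and 62 counts in KO libraries and 4458, 4784 and 4630 in WT libraries. As a level this was 0, 41.7 and 85.4 CPM in KO and 71.7, 74.3 and 75.0 CPM in WT. KO replicate 3 lay above all WT libraries and the other 2 KO libraries below them. The log2 change of -1.23 with a standard error of 0.62 was not called (edgeR, adjusted p = 0.097). Its mean level was 1.74-fold lower in KO, and 3.53-fold lower without KO replicate 3. Called lower it was without KO replicate 1 (log2 change -0.61, adjusted p = 0.031) and without KO replicate 3 (-2.13, adjusted p = 0.024).

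Of the counts of these B55 genes, PPP2R2B held 100%, 85.5% and 80.7% in KO libraries and 10.5%, 10.6% and 10.4% in WT libraries, a share added after its values were seen (exact two-sided permutation test, p = 0.1). Their coding sequences are 75.6% identical. PPP2R2D, another B55 gene, had 0 counts in KO, at least 49.2-fold lower. Summed over the 4 B55 genes, the level was 347 ± 83 CPM in KO and 159.8 ± 2.2 CPM in WT (SD, n = 3 each), 2.17-fold higher. Per length, the sum was only 1.39-fold higher, at 24.3 ± 6.9 FPKM in KO and 17.5 ± 0.3 FPKM in WT (SD, n = 3 each).

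The B56 regulatory genes were called in both directions. PPP2R5D (chr6:42984553-43012342, plus strand), which encodes B56 delta, had 0 counts in all 3 KO libraries and 4342, 4386 and 4161 in WT libraries, where its WT share would have given 55.4, 59.1 and 49.7 KO counts. It was at least 54.7-fold lower in KO (edgeR, adjusted p = 1.2e-05). The MEA1 gene overlaps it on the opposite strand, and since it is not known whether counting used strand, reads of the pair may be mixed. MEA1 was at 0 in KO too. PPP2R5A (B56 alpha) was 18.1-fold and PPP2R5E (B56 epsilon) 2.28-fold higher in KO on the CPM scale, PPP2R5C (B56 gamma) was at 0 and at least 105-fold lower, and PPP2R5B (B56 beta) was not called. Of the 5 genes, 2 were higher (40.0%, against 7.63% of all genes tested), 2 lower (40.0%, against 88.0%) and 1 not called.

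PP1 kept 2 of its 3 catalytic genes in the KO counts. PPP1CA (chr11:67398181-67421183, minus strand), the PP1 alpha gene, had 0 counts in all 3 KO libraries and 10248, 9426 and 8593 in WT libraries. At its WT share it would have had 122, 129.5 and 109 KO counts. Its level of 150.1 ± 13 CPM in WT (SD, n = 3) set a bound of at least 120-fold lower in KO (edgeR, adjusted p = 1.5e-05). RAD9A, which overlaps it on the opposite strand, had 0 counts in KO and 1154 to 1278 in WT. PPP1CC, the gamma gene, was 6.01-fold higher in KO at 1249 ± 209.7 CPM against 208 ± 4.7 CPM in WT, and PPP1CB, the beta gene, 2.62-fold higher at 621 ± 76 CPM against 237 ± 13 CPM in WT (SD, n = 3 each). Both were called higher (edgeR, adjusted p = 1.2e-05 for PPP1CC and 5.4e-05 for PPP1CB).

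Of the counts of the 3 PP1 catalytic genes, PPP1CA made up 0 of 4448 in KO, against 27.8%, 24.7% and 23.1% in WT libraries. The difference was -25.2 percentage points (exact two-sided permutation test, p = 0.1, the smallest possible). By counting error alone, 0 of 4448 counts pooled over the KO libraries allows a PPP1CA share of up to 0.0674%. PPP1CC made up 63.8%, 67.7% and 68.5% in KO libraries and 34.3%, 35.1% and 35.3% in WT libraries, and PPP1CB 36.2%, 32.3% and 31.5% in KO and 37.8%, 40.1% and 41.6% in WT. These shares of PPP1CC and PPP1CB were added after their values were seen. As shares of summed FPKM, those of PPP1CB overlapped, with means of 31.8% in KO and 32.4% in WT (exact two-sided permutation test, p = 0.9). Summed over the 3 genes, the level was 3.14-fold higher in KO on the CPM scale.

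**Figure D2:**
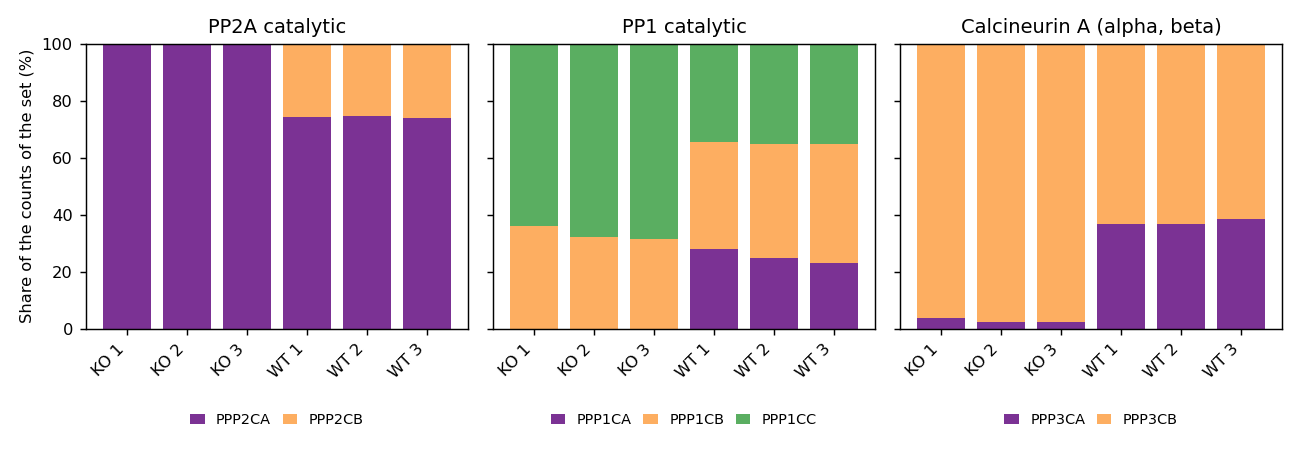
Share of each gene in the counts of its catalytic set, in percent, for the 3 OTULIN KO libraries (left) and the 3 WT libraries (right) in each panel. PPP2CA fills the PP2A bar in KO, PPP1CA is absent from the PP1 bar in KO and 23.1% to 27.8% of it in WT, and PPP3CA is 2.28% to 3.57% of the calcineurin pair in KO and 36.8% to 38.5% in WT.

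Reading these shares needs reads that can be told apart between near relatives. The set below shows a 60-base coding stretch around the conserved metal-binding signature of the PP1 and calcineurin catalytic genes, from the GENCODE transcripts on GRCh38. Capitals mark bases that differ within the PP1 trio or within the calcineurin pair, 15 of 60 in each. The PP1 stretches lie in exon 3 of PPP1CA (chr11:67400795-67400854, minus strand), PPP1CB (chr2:28778874-28778933, plus strand) and PPP1CC (chr12:110730635-110730694, minus strand). The calcineurin stretches cross from exon 3 into exon 4 of PPP3CA (chr4:101099717-101109007, minus strand) and PPP3CB (chr10:73475025-73478552, minus strand).
PPP1CA: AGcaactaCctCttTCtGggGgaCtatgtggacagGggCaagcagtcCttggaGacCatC
PPP1CB: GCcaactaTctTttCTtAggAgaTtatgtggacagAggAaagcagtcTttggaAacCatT
PPP1CC: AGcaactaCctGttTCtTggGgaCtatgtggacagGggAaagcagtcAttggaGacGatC
PPP3CA: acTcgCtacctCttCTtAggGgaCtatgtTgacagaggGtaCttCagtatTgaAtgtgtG
PPP3CB: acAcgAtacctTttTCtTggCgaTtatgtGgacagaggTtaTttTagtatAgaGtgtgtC
Between the longest coding transcripts, the longest shared run was 18 bases for PPP1CA and PPP1CB, 20 for PPP1CA and PPP1CC, 23 for PPP1CB and PPP1CC, and 20 for PPP3CA and PPP3CB. How the authors counted reads that match several genes is not given in the sources used here.

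Calcineurin counts came almost wholly from the beta gene in KO libraries. PPP3CB (chr10:73436433-73496024, minus strand), the calcineurin A beta gene, had 1244, 1135 and 1201 counts in KO libraries and 3668, 4288 and 4010 in WT libraries. Its level was 1537, 1315 and 1655 CPM in KO and 59.0, 66.6 and 64.9 CPM in WT, with no overlap. The mean CPM was 23.7-fold higher in KO. The log2 change fitted with TMM factors was 4.16 with a standard error of 0.10 (edgeR, adjusted p = 1.1e-06), against 4.56 on library totals. PPP3CA (chr4:101023409-101348278, minus strand), the alpha gene and the main form in brain, had 46, 27 and 28 counts in KO libraries and 2143, 2499 and 2515 in WT libraries. As a level this was 56.8, 31.3 and 38.6 CPM in KO and 34.4, 38.8 and 40.7 CPM in WT. The groups overlapped, with KO replicate 1 above all WT libraries and KO replicate 2 below them. The log2 change of -0.25 with a standard error of 0.17 was not called (edgeR, adjusted p = 0.20), and its sign depended on scaling. It was 0.15 when library totals were used, and -0.80, a call (adjusted p = 0.0048), under median-ratio factors. It was also called lower without KO replicate 1 (-0.49, adjusted p = 0.017).

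Of the counts of the pair, PPP3CA held 3.57%, 2.32% and 2.28% in KO libraries and 36.9%, 36.8% and 38.5% in WT libraries. The difference of -34.7 percentage points does not rest on the scaling between libraries (exact two-sided permutation test, p = 0.1, the smallest possible). PPP3CC, the gamma gene on chromosome 8, had no KO count and was at least 10.2-fold lower. PPP3R1, which encodes the calcium-binding B subunit that calcineurin A needs, was 4.85-fold higher in KO on the CPM scale, at 589 ± 75 CPM against 121 ± 1.9 CPM in WT (SD, n = 3 each; edgeR, adjusted p = 2.3e-05).

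PP5 and its chaperone were lower together. PPP5C (chr19:46347087-46392981, plus strand) had 0 counts in all 3 KO libraries and 9692, 9317 and 9089 in WT libraries, where its WT share would have given 121, 129 and 108 KO counts. Its WT level of 149 ± 5.8 CPM (SD, n = 3) set a bound of at least 119-fold lower in KO (edgeR, adjusted p = 1.2e-05). Of the genes of its activator HSP90, HSP90AB1 had no KO count and was at least 1626-fold lower, and HSP90AA1 had 8, 26 and 14 counts in KO and was 116-fold lower. All 3 genes were called lower, as were 88.0% of all genes tested.

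Per length, the order of the 10 genes differed between the groups. In KO libraries PPP3CB at 264 ± 32 FPKM and PPP2CA at 243 ± 24 FPKM stood first with overlapping ranges, followed by PPP2R2B at 20.0 ± 3.8 FPKM (SD, n = 3 each). PPP3CA at 7.20 FPKM and PPP2R2A at 4.28 FPKM came next with overlapping ranges, then PPP2R1A at 0.111 FPKM and the 4 genes at 0. In WT libraries PPP1CA at 33.8 ± 3.0 FPKM and PPP2CA at 31.6 ± 0.72 FPKM stood first with overlapping ranges (SD, n = 3 each). Then came PPP2R1A at 27.9, PPP5C at 19.3, PPP2R5D at 16.6, PPP2CB at 15.7, PPP3CB at 11.4, PPP2R2A at 7.69, PPP3CA at 6.68 and PPP2R2B at 0.578 FPKM, with no overlap between any of these neighbours. The gene with the lowest WT level was thus the third in KO, and the gene with the highest WT level had no count in KO. By FPKM rank among all genes tested, PPP3CB was 109 in KO and 3589 in WT, and PPP2CA 117 in KO and 1095 in WT. Together the 10 genes took 0.366% ± 0.041 of the counts in KO libraries and 0.117% ± 0.0019 in WT libraries (SD, n = 3 each; exact two-sided permutation test, p = 0.1). The sum does not describe each gene, since PPP2CA at 1764 CPM and PPP3CB at 1502 CPM held most of its 3657 CPM in KO.

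The scaling between libraries of such unlike make-up is itself uncertain. Over the 1496 tested genes with at least 30 KO counts, the median log2 change was 0.57 with the TMM factors used here, 0.96 under plain totals and 0.01 under median-ratio factors. The log2 changes of 2.58, 4.16 and 4.74 for PPP2CA, PPP3CB and PPP2R2B lay above the median of 0.57. That median covers genes chosen by their KO counts, these 3 among them, so it is no independent reference. All 3 were called higher under each of the 16 alternatives run, with log2 changes no smaller than 2.02. The log2 changes of PPP1R12A (1.00), PPP1CB (0.99), CABIN1 (0.85) and PPP2R5E (0.79), described here from the wider set, were closer to that median. With median-ratio factors they were 0.45 for PPP1R12A, 0.43 for PPP1CB, 0.28 for CABIN1 and 0.23 for PPP2R5E, all still called higher (edgeR, adjusted p = 0.0055, 0.0015, 0.02 and 0.022 in that order). On library totals the log2 changes of these genes were larger, at 1.40, 1.39, 1.25 and 1.19 in the same order. The sign for PPP3CA differed among the scalings.

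**Figure D3:**
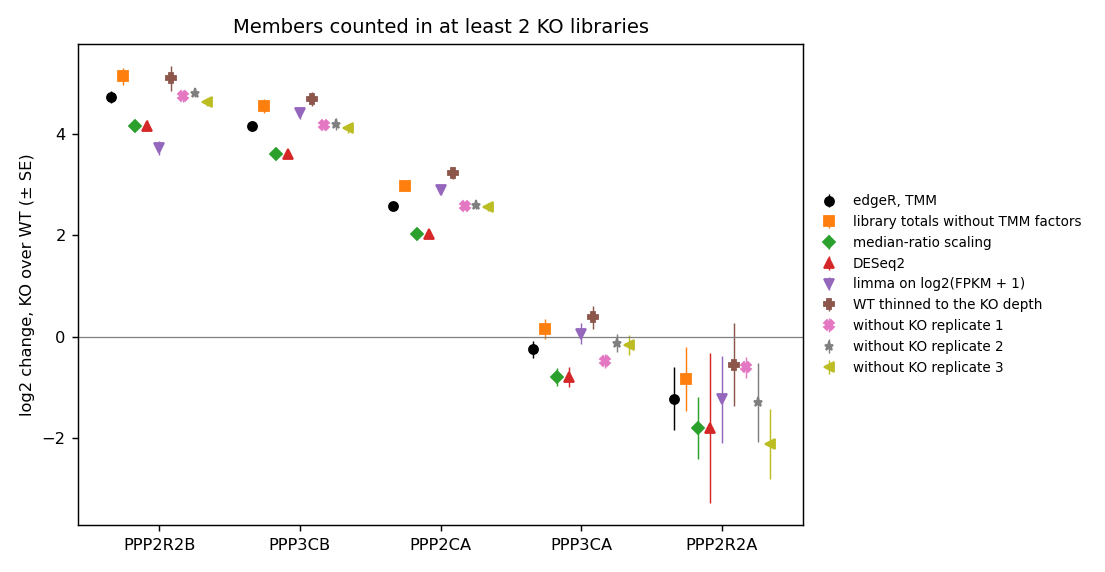
Fitted log2 change, KO over WT, with its standard error, for the 5 genes counted in at least 2 KO libraries, under edgeR with TMM factors (black) and 8 alternative settings. PPP2R2B, PPP3CB and PPP2CA stay above 2 under all 9, PPP3CA falls on both sides of 0 (from -0.80 to 0.38), and PPP2R2A stays below 0 with wide errors.

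A wider set of phosphatase genes was compared to place the 10 among their partners. It has 86 rows for PP2A, PP1, calcineurin, PP5, PP4, PP6 and their regulators, the 10 genes included, with PPP1R1A not matched. PPP2R3B is listed in 2 rows, on chromosomes X and Y. Only its Y row reached the minimum for testing, and that row was called lower. How reads were split between the PPP2R3B rows is not known. Of the 71 rows tested, 18 were higher in KO (25.4%, against 7.63% of all genes tested), 49 lower (69.0%, against 88.0%) and 4 not called. With the 10 genes left out, 15 of 61 were higher and 44 lower. Of the 71, 35 were at 0 in all KO libraries (49.3%, against 71.3%). Passing the filter through the group where it is high makes a gene more likely to differ, so these shares are a description.

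Of 18 PP1 regulatory genes tested, 17 were lower (94.4%, against 88.0% of all genes tested) and 1 was higher (5.56%, against 7.63%), shares near those of all genes. The higher one was PPP1R12A, the myosin phosphatase targeting subunit, at 2.65-fold. PPP1R14B, a PP1 inhibitor, and PPP1R15B, which brings PP1 to the translation factor eIF2, had no KO count and were at least 97.0-fold and 96.6-fold lower.

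Of 11 PP2A regulators and inhibitors, 2 were higher (18.2%, against 7.63% of all genes tested), 8 lower (72.7%, against 88.0%) and 1 not called. SET, a protein inhibitor of PP2A, was 4.47-fold higher in KO at 2921 ± 529.5 CPM against 653 ± 22 CPM in WT (SD, n = 3 each). Its relative SETSIP can share its reads, so the level is uncertain. ENSA, which inhibits PP2A with B55 during mitosis, was 1.96-fold higher with a log2 change of 0.57 (edgeR, adjusted p = 0.0031), but of 0.01 with median-ratio scaling, where it was not called. ARPP19, its close relative with the same activity, had no KO count and was at least 259-fold lower, and TIPRL, which binds PP2A-type catalytic subunits, at least 85.3-fold lower. Among striatins and B'' genes, further regulatory subunits of PP2A, STRN3 was 14.8-fold higher, and STRN and PPP2R3C were at 0 and at least 59.7-fold and 44.5-fold lower.

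Calcineurin partners and the PP2A-like phosphatases completed the set. Of 6 calcineurin regulators tested, 2 were higher (33.3%, against 7.63% of all genes tested) and 4 lower (66.7%, against 88.0%). Besides PPP3R1, the inhibitor CABIN1 was 2.38-fold higher in KO on the CPM scale. RCAN1, another inhibitor, was at 0 and at least 14.1-fold lower, and FKBP1A, through which the drug FK506 blocks calcineurin, had 0, 4 and 4 KO counts and was 33.1-fold lower. Of 10 PP4 and PP6 genes, 5 were higher (50%, against 7.63% of all genes tested) and 5 lower (50%, against 88.0%). PPP6C, the PP6 catalytic gene, was 3.55-fold and the PP4 regulatory gene PPP4R3A 6.07-fold higher, while PPP4C, the PP4 catalytic gene, and PPP4R1 were at 0 and at least 111-fold and 82.9-fold lower. Processed pseudogenes exist for HSP90AA1, HSP90AB1 and FKBP1A, and their values are uncertain in the same way as that of SET.

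**Figure D4:**
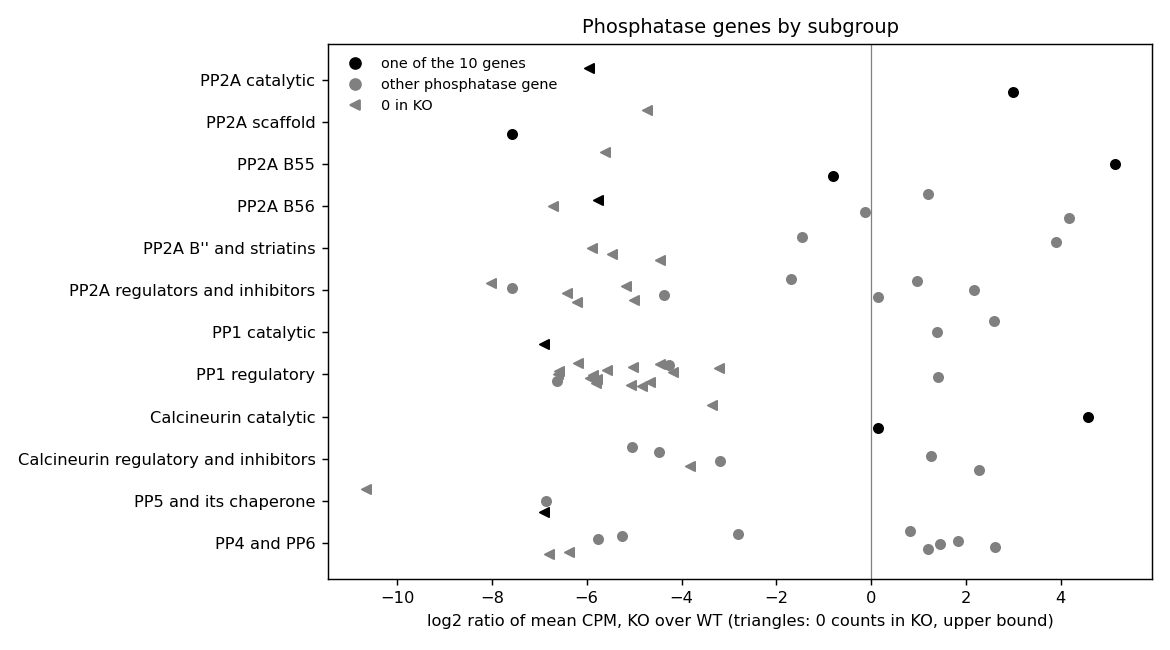
Log2 ratio of mean CPM, OTULIN KO over WT, of the 71 tested phosphatase rows by subgroup, with the 10 genes in black, other genes in grey, and triangles for genes at 0 in KO, drawn at their upper bound. PP1 regulatory genes lie below 0 except PPP1R12A, while the PP2A, PP1 and calcineurin catalytic groups have genes on both sides.

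For the 4 genes with a count in all 6 libraries, the genes of most similar level were found by Euclidean distance over the 6 values of log2(CPM + 1). PPP2CA was closest to ARGLU1 (distance 0.313), HUWE1 (0.392) and EIF4A2 (0.469). PPP3CB was closest to KCMF1 (0.21), TAF9 (0.408) and MEMO1 (0.425), PPP3CA to REV3L (0.244), COG3 (0.509) and DIP2C (0.512), and PPP2R2B to PCDH1 (0.71), YBX1P1 (0.816) and CARNMT1 (0.837). KCMF1 had 1597, 1431 and 1678 CPM in KO libraries and 63.8, 66.0 and 59.9 CPM in WT libraries, nearly the levels of PPP3CB.

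The longest coding transcripts of the 10 genes differed in base composition along with the calls, a comparison added after the calls were known. The GC content was 41.0% for PPP3CB, 41.3% for PPP2CA and 44.1% for PPP2R2B, the 3 higher genes. It was 48.0% for PPP2CB, 53.7% for PPP2R1A, 55.5% for PPP2R5D, 58.7% for PPP5C and 60.4% for PPP1CA, the 5 lower genes, and 38.6% for PPP2R2A and 42.6% for PPP3CA, which were not called. The higher genes and the uncalled ones all lay below the lower ones. Over all protein-coding genes tested, the median was 43.4% for 656 higher genes, 50.3% for 1790 lower genes with KO counts and 49.3% for 6736 lower genes at 0 in KO. Among the 18 higher rows of the wider set it was 40.9%, with a range of 35.3% to 59.1%, and among the 34 lower rows at 0 in KO that matched a transcript 48.2%, with a range of 34.9% to 68.0%. The ranges overlap, and the part of base composition in the calls was not tested.

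**Figure D5:**
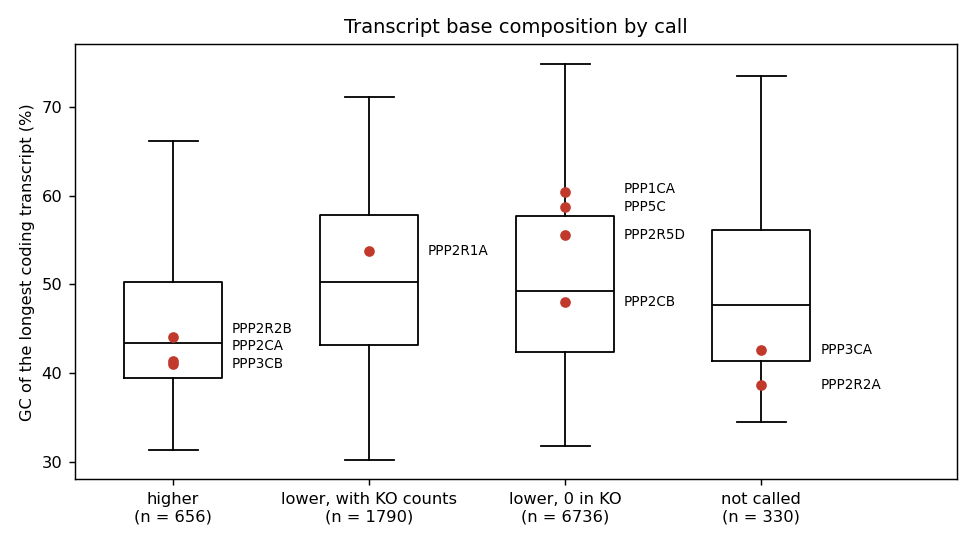
GC content in percent of the longest coding transcript of protein-coding genes by call (boxes, quartiles with the median; whiskers, up to 1.5 times the box height; outliers not drawn), with the 10 genes in red. PPP2CA, PPP3CB and PPP2R2B lie between 41.0% and 44.1% near the median of the higher class, and PPP1CA and PPP5C lie above the upper quartile of their class.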

How the data were processed

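Counts and FPKM values per gene were made and deposited by the authors in 1 table, per the file headers, from poly(A)-selected RNA. The counts are not normalized, and the FPKM values deposited by the authors are scaled to length and depth. The build was hg38 and the tools were StringTie 1.3.4d, HISAT2 2.0.4, DESeq2 and cutadapt 1.9, per the submitters' processing notes, which give them no role or order. Which annotation was counted, and whether by strand, is not given in the sources, so overlapping, antisense and near-identical genes may share reads.

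Genotype was tested as the only term by the quasi-likelihood test of edgeR 4.0.16 (R 4.3.3) on genes averaging 1 FPKM or more, scaled by TMM factors on total counts. A standard error is the absolute log2 change divided by the root of F. A fold is a ratio of mean CPM. For a gene at 0 in KO the bound uses 3 counts over the 2398362 counts of the KO group. Per library, 3 counts are 3.48 to 4.13 CPM in KO and 0.0466 to 0.0486 CPM in WT. Such intervals and floors cover counting error alone. The protocol names no molecular identifiers, so they also take each count as a separate molecule, which is not known. Shares were compared with an exact permutation test. No replicate pair agreed within sampling noise (chi-square per degree of freedom 15.5 to 41.7).

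The 10 genes and the wider lists were chosen with earlier results of these data known. All 10 are named. In the wider set, the rule names up to 2 higher and 2 lower genes of largest change per subgroup and the genes the shares need. SETSIP, MEA1, RAD9A and PPP2R5B were named outside it. Some genes of the adrenergic marker list are not reported here. Alternatives were no filter, at least 5 FPKM, median-ratio scaling, library totals, totals without 4 ribosomal RNA loci, DESeq2 1.42.0, limma 3.58.1 on log2(FPKM + 1) and log2(FPKM + 0.1), WT thinned to the KO depth, a replicate block, and leaving out each library. Python 3.11.15, numpy 2.4.6, scipy 1.17.1, pandas 2.3.3 and matplotlib 3.10.9 were also used.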

Additional observations from a re-analysis of the deposited data

How the results depend on the processing

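The number of the 10 genes higher in KO was 3 under all 16 alternatives. The number lower was 5 to 7 under all but the replicate block, and the number leaving out 1 library was 5 to 7. Same-numbered KO and WT libraries did not deviate together (r = 0.02, -0.03 and 0.02 over 1496 genes), nor did the other pairs (-0.04 to 0.03). This cannot show whether same-numbered libraries were made together, which the labels do not say. With replicate number as a block in edgeR, 0 of the 10 genes were lower (5 at an unadjusted p under 0.05; 6 by DESeq2 without the block), as were 2 of the 71 phosphatase rows, with 11 higher. Of the higher genes named here, PPP1R12A, CABIN1, PPP2R5E and ENSA lost their call under the block (edgeR, adjusted p = 0.081, 0.094, 0.074 and 0.092 in that order). Over all genes tested the block left 452 higher and 289 lower. A filter at 5 FPKM tested 4719 genes, of which 3851 were lower and 653 higher, fewer by construction. The log2 change of PPP3CA was 0.15 on library totals, 0.06 with limma at either pseudocount and 0.38 with WT thinned to the KO depth, none of them called. It was called lower at -0.57 with the 5 FPKM filter and at -0.80 by DESeq2, and PPP2R2A was called lower at -1.80 with median-ratio scaling. The cause was not tested. As shares of summed FPKM, which weights genes by length, the differences were 33.2 points for PPP2CA and -37.2 points for PPP1CA. Without a library, the differences between KO and WT were 25.5 to 25.9 points for PPP2CA, -26.3 to -23.9 for PPP1CA and -35.1 to -34.1 for PPP3CA. Phosphatase rows higher numbered 17 to 18 and lower 48 to 51 in the same runs. With median-ratio scaling, and with DESeq2, 15 rows were higher. Leaving out a KO library removes counts, and lowered the bounds at most to at least 39.6-fold for PPP2CB, 35.0 for PPP2R5D, 76.8 for PPP1CA and 76.4 for PPP5C, each without KO replicate 2. The bounds of other genes at 0 shrink alike. Folds of mean CPM also moved without the 4 ribosomal RNA loci in the totals. The bounds fell to at least 44.1-fold for PPP2CB, 39.0 for PPP2R5D, 85.6 for PPP1CA and 85.1 for PPP5C. The increases grew, with WT over KO going from 0.127 to 0.0909 for PPP2CA. It went from 0.0423 to 0.0304 for PPP3CB and from 0.0284 to 0.0205 for PPP2R2B. At the depth of the KO libraries, 0 counts allow a level of up to 1.25 CPM over the group by counting error alone. That holds only if the KO columns sample RNA as the WT columns do, which is not known. PPP2R2A had 0, 36 and 62 KO counts, where its WT share would have given 59.6, 63.6 and 53.5. The spread among KO libraries was thus wider than counting error, and folds for genes at 0 could be smaller than their bounds.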
